A study of Mus musculus with 2 samples.

Results

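The TNF receptor superfamily, its ligands and the TRAF adaptors were described in hindlimb skeletal muscle of mice that overexpress syntaxin 4 and of wild-type mice. Members were taken from gene symbols alone: every probe set annotated with 1 symbol of the Tnfrsf or Tnfsf series, the family members that carry other names (among them Tnf, Fas, Cd27, Cd40, Eda, Ltbr, Ngfr and Relt), and Traf1 to Traf7. This gave 49 genes, each read by 1 probe set, of 19938 genes on the array: 27 receptors, 16 ligands and 6 TRAF adaptors. Traf3 was not among the genes analysed here. Tnfsf12 and Tnfsf13 are named by a probe set that lists several genes, so they have no value here.

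The series holds 1 whole-transcript microarray of wild-type muscle and 1 of muscle from mice with a Syn4 overexpression transgene. Both are labelled as male C57BL/6J mice on standard chow. No age, number of mice behind each array or promoter driving the transgene is given in the sources used here. Values are log2 intensities, and each difference is the transgenic minus the wild-type value. Since each genotype has 1 array, the spread between mice is unknown and no difference below was tested; higher and lower describe these arrays.

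Receptors of this family bind ligands that are trimers on the cell surface or in solution. Receptors with a death domain can recruit caspases, while most others recruit TRAF proteins, which switch on NF-kB and MAP kinases. Decoy receptors bind a ligand but do not pass on the death signal. In skeletal muscle the family is best known for TNF itself and for TWEAK and its receptor Fn14 (Tnfrsf12a), which are linked to fibre wasting, and for RANK ligand and osteoprotegerin.

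The transgene's own gene, Stx4a, was at 8.84 in wild type and 12.20 in the transgenic array, the direction the labels give. Muscle identity was clear: all 10 listed muscle genes, among them Ckm, Acta1 and Ttn, lay at 13.11 or above in both arrays. Their differences ran from -0.06 to 0.36. A gene was counted when the brighter of its values reached 6.79, the median of the brighter value over all genes, and 9974 genes passed. RMA gives no call of detection. As a guide to dim signal, 95% of 1027 olfactory receptor genes had a mean of both arrays at or under 5.415, here called the olfactory receptor percentile.

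Of the 49 members, 19 passed the level filter and 30 did not. Among the 19, 2 were higher by at least 1.5-fold in the transgenic array (10.5%), where 2.66% of all genes that passed were that much higher. Another 1 member was lower by 1.5-fold (5.26%), where 1.71% of all genes were. In so small a set each gene makes up 5.26%, and the pair that was higher lies side by side on 1 chromosome, so these shares are coarse. The remaining 16 were within 1.5-fold. Over all 49 members, 21 differences were above 0, 27 below and 1 at 0. Over all 19938 genes, 9358 were above 0, 9889 below and 691 at 0. The median of the 49 members was -0.01, and the median of all genes was 0.00. The median of the 19 members that passed was 0.10, beside 0.03 for all genes that passed. Fas and Ngfr passed through the transgenic array alone, so they could count only as higher; the other 17 were above the filter in both arrays.

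**Figure D1:**
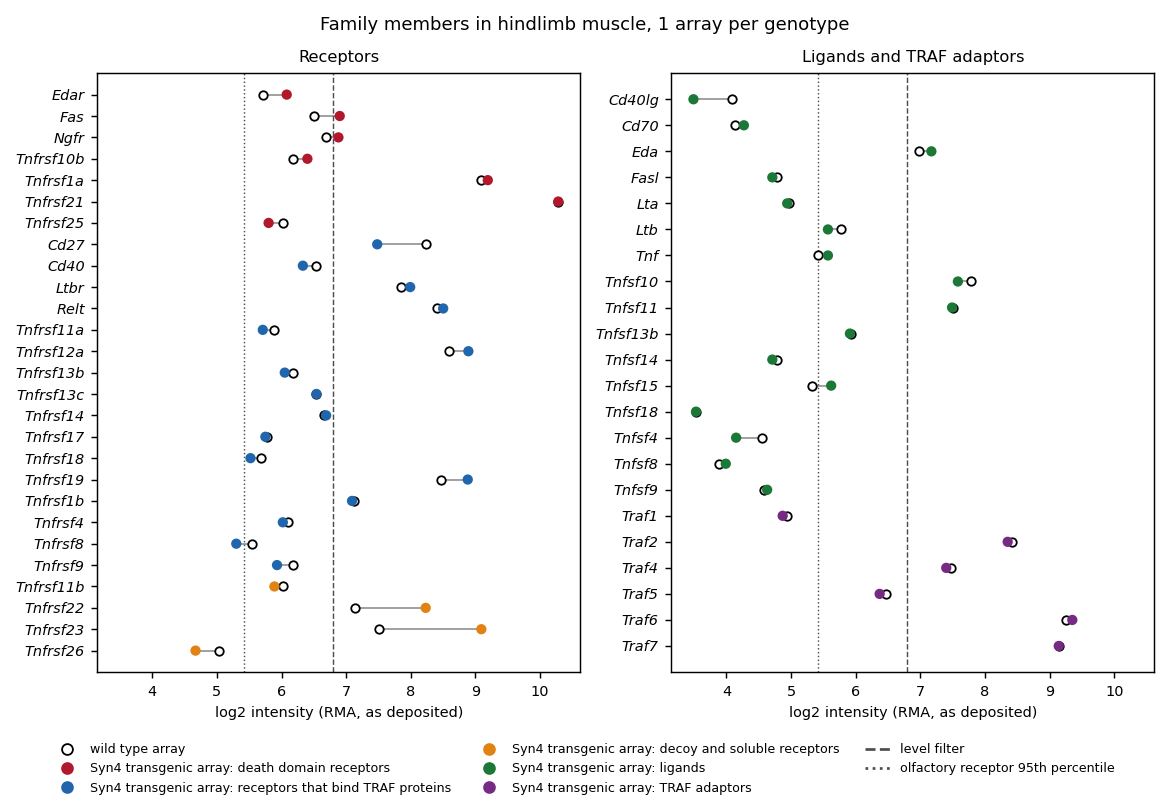
Log2 intensity (x axis) of the 27 receptors (left) and of the 16 ligands and 6 TRAF adaptors (right), 1 array per genotype, with open circles for wild type and filled circles for the transgenic array. The dashed line is the level filter at 6.79 and the dotted line the olfactory receptor percentile at 5.415; Tnfrsf22, Tnfrsf23 and Cd27 have the widest gaps among members to the right of the dashed line.

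The decoy receptor genes Tnfrsf22 and Tnfrsf23 had the largest differences of the family. Both encode mouse receptors that bind the death ligand TRAIL and lack a working death domain. Tnfrsf23 was at 7.51 in wild type and at 9.09 in the transgenic array, a difference of 1.58, or 2.99-fold. Tnfrsf22 was at 7.14 and 8.23, a difference of 1.09, or 2.13-fold. Both were above the level filter in both arrays. Of the 9974 genes that passed the filter, 31 had a difference at least as high as Tnfrsf23, itself included, and 70 at least as high as Tnfrsf22. These genes are close relatives, so how far each probe set also reads the other transcript is unknown. An annotated long non-coding RNA, E230032D23Rik, overlaps Tnfrsf23 and has no value under its own symbol.

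Tnfrsf22, Tnfrsf23 and Tnfrsf26 lie next to each other on chromosome 7, but the third did not share the direction. Tnfrsf26, a related receptor gene, was at 5.03 and 4.67, a difference of -0.36, and both values were under the olfactory receptor percentile. On the far side of Tnfrsf23, the next measured gene is Osbpl5, an oxysterol-binding protein relative, at 8.37 and 8.71 (0.34). On the far side of Tnfrsf26, the transfer RNA synthetase gene Cars was at 8.89 and 9.02 (0.13), and the nucleosome assembly gene Nap1l4 differed by -0.09. Farther along on that side, the cell cycle inhibitor gene Cdkn1c (-0.28), Phlda2 (-0.11), Slc22a18 (-0.23) and Kcnq1 (-0.27) had small negative differences. Of these genes, all but Cdkn1c were under the level filter in both arrays. Of the 13 other genes within 7 places of Tnfrsf22 in the RefSeq gene order (assembly GRCm38.p6), 0 reached 1.5-fold, with a range from -0.36 to 0.34. Stx4a lies on the same chromosome, and a link between it and this cluster was not tested.

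**Figure D2:**
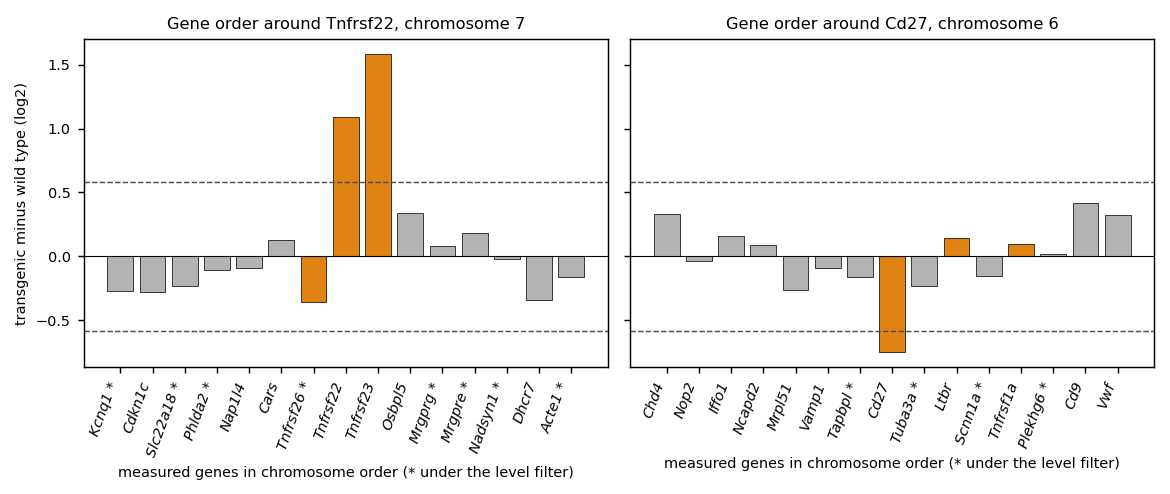
Difference in log2 intensity (transgenic minus wild type, y axis) for measured genes in chromosome order, 7 on each side of Tnfrsf22 on chromosome 7 (left) and of Cd27 on chromosome 6 (right), with family members in orange and dashed lines at 1.5-fold. Tnfrsf22 (1.09), Tnfrsf23 (1.58) and Cd27 (-0.75) pass the lines, and their neighbours lie between -0.36 and 0.42.

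The other genes of TRAIL and RANK ligand recognition differed less. Tnfsf10, which encodes TRAIL, was at 7.79 and 7.58 (-0.21), so the ligand was not higher in the array where the decoy genes were. Tnfrsf10b, the death receptor for TRAIL, was at 6.18 and 6.40 (0.22), under the level filter in both arrays. Tnfsf11, which encodes RANK ligand, was at 7.50 and 7.49 (-0.01). Its receptor gene Tnfrsf11a (5.89 and 5.71, -0.18) and Tnfrsf11b, the gene of the soluble decoy osteoprotegerin (6.02 and 5.89, -0.13), were under the filter. Of the 4 genes listed as decoy and soluble receptors, 2 were above 0 and 2 below. The 2 above passed the level filter, and the 2 below, Tnfrsf11b and Tnfrsf26, did not.

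Promoter sequence is shown for Tnfrsf23, the member with the largest difference, for Tnfsf10, the ligand its product binds, and for Cd27, the member that was lower by 1.5-fold. The windows are the 250 bases before the listed start, from RefSeq on GRCm38.p6, which held an entry for 40 of the 49 members. They lie at chr7:143685876-143686125 on the minus strand (Tnfrsf23), chr3:27316827-27317076 on the plus strand (Tnfsf10) and chr6:125237028-125237277 on the minus strand (Cd27). Capitals mark matches, on either strand, to 5 patterns. These are the 10-letter consensus of NF-kB sites, a loose form of it (GGG and CC with any 5 bases between), its first part alone (GGGANTT), an AP-1 form (TGANTCA) and the TATA box core (TATAAA).
Tnfrsf23: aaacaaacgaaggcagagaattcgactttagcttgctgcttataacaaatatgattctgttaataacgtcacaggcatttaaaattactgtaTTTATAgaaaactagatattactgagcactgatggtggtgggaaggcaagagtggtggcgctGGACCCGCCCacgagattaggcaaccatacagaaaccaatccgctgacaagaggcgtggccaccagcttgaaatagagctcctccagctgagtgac
Tnfsf10: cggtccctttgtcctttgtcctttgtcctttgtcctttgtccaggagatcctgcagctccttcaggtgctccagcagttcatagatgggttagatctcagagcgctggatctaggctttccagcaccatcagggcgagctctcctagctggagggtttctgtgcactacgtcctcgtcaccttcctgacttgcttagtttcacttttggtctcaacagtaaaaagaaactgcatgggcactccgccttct
Cd27: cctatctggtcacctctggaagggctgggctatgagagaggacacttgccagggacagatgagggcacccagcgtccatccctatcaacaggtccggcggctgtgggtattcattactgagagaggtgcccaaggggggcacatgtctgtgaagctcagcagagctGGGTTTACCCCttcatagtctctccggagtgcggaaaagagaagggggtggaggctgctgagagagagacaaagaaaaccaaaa

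The Tnfrsf23 window held 1 match to the loose NF-kB form (GGACCCGCCC as printed) and 1 to the TATA box core. Both were on the strand opposite to the one shown, at -96 and -158 bases from the listed start. The Cd27 window held 2 matches to the loose form, which overlap each other. The Tnfsf10 window held 0 matches to the 5 patterns, which says only that these letters are not in it. GC content was 44.8% for Tnfrsf23, 51.6% for Tnfsf10 and 56% for Cd27, where the median of all windows was 52.4%. Across the family, 4 of 44 windows (9.09%) held the NF-kB consensus, and 7.25% of all 32851 windows did. The loose form was in 68.2% of the family's windows and 45.8% of all, but GGGANTT in 6.82% and 14.4%, so which share is larger depends on how the motif is spelled. For TGANTCA the shares were 11.4% and 6.75%, and for TATAAA 13.6% and 12.4%. The genes with the NF-kB consensus were Ltb, Tnfrsf8, Tnfrsf9 and Tnfrsf25, each under the level filter. A match is a run of letters, not a measured binding site.

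Cd27, a receptor of T and B lymphocytes that binds CD70, was the member that was lower. It was at 8.23 in wild type and at 7.48 in the transgenic array, a difference of -0.75, or 1.68-fold. Of the 9974 genes that passed the filter, 87 had a difference at least as low. Its ligand gene Cd70 was at 4.14 and 4.27, under the olfactory receptor percentile in both arrays. Of the 9 measured lymphocyte markers of 10 listed, 0 passed the level filter and 4 were at or under that percentile in both arrays. Their mean was 5.21 in wild type and 5.07 in the transgenic array. Of the 9 differences, 7 were below 0, where 9889 of all 19938 genes were. The differences ran from Cd79b at -0.34 and Cd3e at -0.28 to Ptprc at 0.12. The highest value among the markers was 6.47 (Cd3e in wild type), under both Cd27 values. The part of these markers in the Cd27 difference was not tested. In bulk tissue, fewer cells of a type cannot be told apart from less RNA per cell. The annotated span of Cd27 also overlaps a long non-coding RNA, E130112N10Rik, and Mir8113, neither with a value under its own symbol. Of the 14 genes within 7 places of Cd27, which include its relatives Ltbr and Tnfrsf1a, 0 reached 1.5-fold, with differences from -0.26 to 0.42.

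Receptors that carry a death domain were all within 1.5-fold between the arrays. Of 7, 6 differences were above 0, where 9358 of all 19938 genes were. The level filter was passed by 4 of the 7, and 0 reached 1.5-fold. Fas and Ngfr passed through the transgenic array alone, so they could count only as higher. Tnfrsf1a, the main receptor for TNF in most tissues, was at 9.09 and 9.19 (0.10). Tnfrsf21, which encodes death receptor 6, was at 10.27 and 10.28 (0.01, a sign that turns under each of the 3 other scalings). These genes were level between the arrays. Fas, the receptor for Fas ligand, was at 6.50 and 6.90 (0.40, 1.32-fold). Ngfr, the p75 neurotrophin receptor of Schwann cells and other cells, was at 6.69 and 6.88 (0.19). In the same arrays, all 7 measured Schwann cell markers of 10 listed were above 0, where 9358 of all 19938 genes were. Their mean was 6.90 in wild type and 7.42 in the transgenic array. Of the 7 markers, 4 passed the level filter, Egr2 and Sox10 through the transgenic array alone. The part of these markers in the Ngfr value was not tested. Edar, the ectodysplasin receptor (5.71 and 6.08, 0.37), and Tnfrsf25 (6.02 and 5.80, -0.22) were under the filter.

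Of the 16 receptors that signal through TRAF proteins, 6 passed the level filter, and Cd27 was the member past 1.5-fold. Tnfrsf19, also called Troy, an orphan receptor, was at 8.47 and 8.88 (0.41, 1.33-fold). Tnfrsf12a, which encodes the TWEAK receptor Fn14, was at 8.59 and 8.89 (0.30, 1.23-fold). Both were higher in the transgenic array by less than 1.5-fold. Ltbr, the lymphotoxin beta receptor, was at 7.85 and 7.99 (0.14), and Relt at 8.40 and 8.50 (0.10). Tnfrsf1b, the second TNF receptor, was at 7.12 and 7.09 (-0.03). Of the 9974 genes that passed, 639 had a difference at least as high as Tnfrsf19 and 1238 at least as high as Tnfrsf12a.

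Fn14 is a gene that muscle raises after denervation and injury, so a list of satellite cell, regeneration and denervation genes is given beside it. The list was chosen with earlier results of these data known. Of the list's 12 genes, 9 were above 0, where 9358 of all 19938 genes were. The list's mean was 7.48 in wild type and 7.94 in the transgenic array. The level filter was passed by 9 of the 12. Of these, Ankrd1 (1.83), Ncam1 (1.14) and Runx1 (1.04) were past 1.5-fold (33.3%), beside 2.66% of all genes that passed. Pax7 was at -0.33, and Chrng, under the filter, at -0.21. The part of these genes in the Tnfrsf12a value was not tested.

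The other 10 receptors that signal through TRAF proteins were under the level filter, and 8 of them had a difference below 0. Of all 30 family members under the filter, 20 were below 0, and of all 19938 genes, 9889 were. The 10 receptors include the lymphocyte costimulators Tnfrsf4 (6.10 and 6.02), Tnfrsf9 (6.17 and 5.93) and Tnfrsf18 (5.69 and 5.52). Cd40 (6.54 and 6.33), a receptor of antigen-presenting cells, is also among them. The B cell receptors for BAFF and APRIL, Tnfrsf13b (-0.12), Tnfrsf13c (0.01) and Tnfrsf17 (-0.02), were close to level. Over the 10, differences ran from -0.24 (Tnfrsf8 and Tnfrsf9) to 0.03 (Tnfrsf14).

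Most ligand genes gave dim signals in muscle of either genotype. Of 16, 3 passed the level filter: Tnfsf10, Tnfsf11 and Eda, which encodes ectodysplasin A (6.98 and 7.17, 0.19). The latter, its receptor gene Edar (0.37) and the adaptor gene Edaradd (5.59 and 5.93, 0.34) were each above 0, and the receptor and adaptor were under the filter. In both arrays, 9 ligand genes were at or under the olfactory receptor percentile. They were Cd40lg, Cd70, Fasl, Lta, Tnfsf4, Tnfsf8, Tnfsf9, Tnfsf14 and Tnfsf18. Among them Cd40lg, a T cell ligand, was at 4.08 and 3.49 (-0.59, 1.51-fold), and Tnfsf4, the OX40 ligand, at 4.55 and 4.15 (-0.40), values too dim to count. Tnf itself was at 5.41 and 5.57 (0.16), Ltb at 5.77 and 5.57 (-0.20), Tnfsf13b, which encodes BAFF, at 5.92 and 5.91 (-0.01), and Tnfsf15 at 5.32 and 5.62 (0.30). The ligands as a whole had 6 differences above 0, 9 below and 1 at 0, with a median of -0.01. Of all 19938 genes, 9358 were above 0 and 9889 below, with a median of 0.00.

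Macrophages are a main source of TNF in tissue, and their markers differed little. Of 12 markers, 10 were above 0, where 9358 of all 19938 genes were, with a median of 0.00. Of the 7 that passed the level filter, 0 reached 1.5-fold. Of all genes that passed, 2.66% were that much higher and 1.71% lower. The mean of the 12 markers was 7.09 in wild type and 7.215 in the transgenic array, with differences from Adgre1 at -0.12 to C1qa at 0.25. Fibroblast markers were above 0 in 10 of 10, with a median of 0.28. White adipocyte markers were above 0 in all 8 measured of 10 listed, with a median of 1.385 and means of 7.43 and 8.89. The fibroblast marker Dpp4 and the adipocyte markers Lep and Slc7a10 passed the level filter through the transgenic array alone. Endothelial markers had 4 differences above 0 and 4 below, with a median of 0.00. The part of these cell types in the values of Tnfrsf22, Tnfrsf23, Tnfrsf19 and Fas was not tested.

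**Figure D3:**
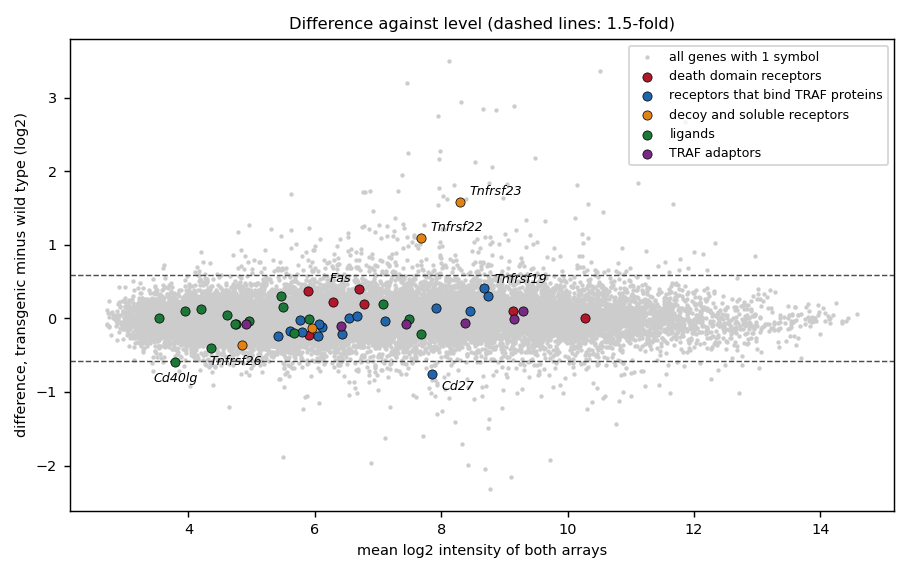
Difference in log2 intensity (transgenic minus wild type, y axis) against the mean log2 intensity of both arrays (x axis) for 19938 genes in grey, with the 49 members coloured by role and dashed lines at 1.5-fold. Tnfrsf23 (1.58) and Tnfrsf22 (1.09) lie above the lines and Cd27 (-0.75) below, and Cd40lg (-0.59) touches the lower line at a dim level.

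The TRAF adaptors hardly differed between the arrays. Traf6, an E3 ubiquitin ligase that muscle uses in wasting, was at 9.25 and 9.35 (0.10). Traf2, the adaptor of TNF receptors, was at 8.41 and 8.35 (-0.06). Traf4 was at 7.48 and 7.40 (-0.08) and Traf7 at 9.15 and 9.14 (-0.01). All 4 that passed the filter lay within 0.10 of 0. Traf5 (6.47 and 6.37, -0.10) and Traf1 (4.94 and 4.87, -0.07) were under the filter, the latter also under the olfactory receptor percentile. Of the 6, 1 was above 0 and 5 below, where 9358 of all 19938 genes were above 0 and 9889 below.

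The genes downstream of the receptors, in a list of kinases, ubiquitin enzymes, caspase regulators and NF-kB subunits, were more often above 0 than below. Of 43 measured genes of 49 listed, 29 were above 0, 11 below and 3 at 0, with a median of 0.09. Of all 19938 genes, 9358 were above 0 and 9889 below, with a median of 0.00. Of the 35 that passed the level filter, 1 was higher by 1.5-fold (2.86%) and 0 lower, beside 2.66% and 1.71% of all genes that passed. Of those 35, 24 were above 0, where 5332 of the 9974 genes that passed were. The median of those 35 was 0.09, beside 0.03 for all genes that passed. Fadd and Map3k14 passed through the transgenic array alone, so they could count only as higher. Cyld, the deubiquitinase that restrains NF-kB signalling, was at 8.94 and 9.55 (0.61, 1.53-fold). Nfkb2, the NF-kB subunit of the non-canonical pathway that Fn14 and Ltbr engage, was at 7.81 and 8.33 (0.52, 1.43-fold). The other subunit of that pathway, Relb, was at 6.94 and 7.20 (0.26). Its kinase gene Map3k14 was at 6.58, under the filter, and 6.90 (0.32). The canonical subunits Rela (0.21) and Rel (0.31) were also above 0. Tbk1 was at 0.42, Ikbkb at 0.36 and Cflar, which blocks caspase 8 activation at death receptors, at 0.34. The caspase gene Casp8 was level at 7.92 and 7.97 (0.05). At the low end, Sharpin (-0.20) and Rbck1 (-0.15) encode subunits of the linear ubiquitin ligase complex, and its catalytic subunit gene Rnf31 was at 0.04.

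Genes that NF-kB is known to induce were split around 0. Of 33 measured of 34 listed, 15 were above 0, 17 below and 1 at 0, with a median of -0.04. Of all 19938 genes, 9358 were above 0 and 9889 below, with a median of 0.00. The 12 targets that passed the level filter had 8 above 0 and 4 below, with a median of 0.165. Of all 9974 genes that passed, 5332 were above 0, with a median of 0.03. Of the 12 targets, 0 were past 1.5-fold, where 2.66% of all genes that passed were higher and 1.71% lower. In so few targets these shares are coarse. Besides Nfkb2, which this list shares with the downstream list together with Birc3, Nfkbia, Nfkbie, Relb and Tnfaip3, the highest of those that passed were Irf1, an interferon regulatory factor (7.07 and 7.41, 0.34), and Bcl2l1, a survival gene (6.76 and 7.10, 0.34). Bcl2l1 passed through the transgenic array alone, so it could count only as higher, and without it 7 of 11 were above 0, with a median of 0.12. Sod2, the mitochondrial superoxide dismutase (12.84 and 12.60, -0.24), and Tnfaip2 (9.65 and 9.47, -0.18) were lowest among those that passed. The inhibitor genes that respond quickly to TNF, Nfkbia (9.16 and 9.06) and Tnfaip3 (7.16 and 7.09), were slightly lower in the transgenic array. The inflammatory targets Ccl2 (-0.28), Cxcl1 (-0.23), Il6 (0.15) and Il1b (0.05), named after their values were seen, were under the level filter in both arrays.

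**Figure D4:**
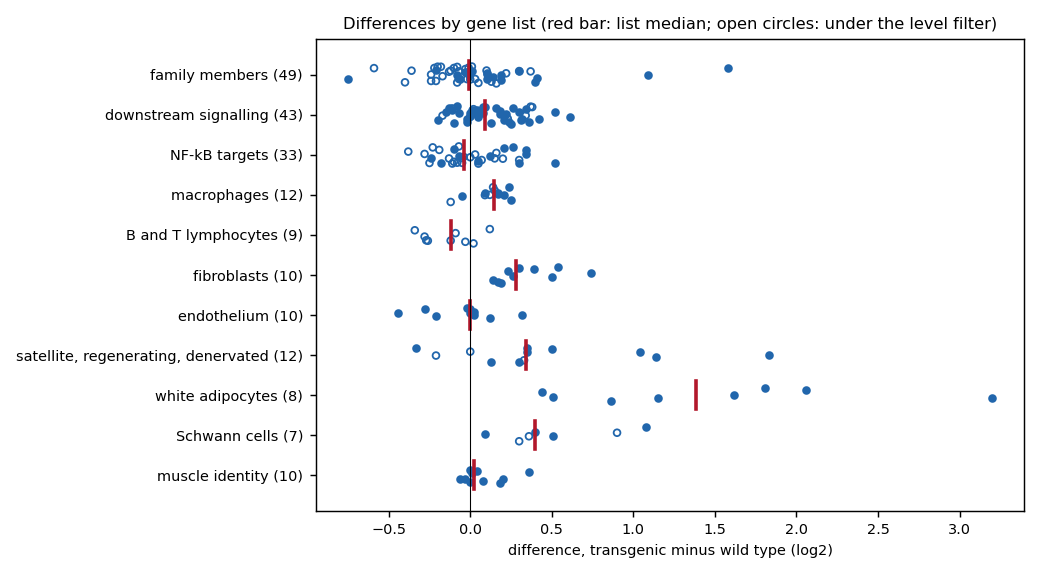
Difference in log2 intensity (transgenic minus wild type, x axis) of each gene by list, with the number of measured genes in brackets, filled circles for genes above the level filter, open circles for those under it, and a red bar at the list median. The family (-0.01), downstream (0.09) and NF-kB target (-0.04) medians lie near 0, and white adipocyte markers lie from 0.44 to 3.20.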

How the data were processed

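Total RNA of hindlimb muscle was hybridised to 1 whole-transcript array per genotype, and the authors deposited log2 intensities of 35556 probe sets. RMA and Partek are named in the submitters' processing notes, without versions or steps. Both arrays had a median of 6.06. RMA compresses large ratios, and having 1 array per group limits precision.

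From these values, differences (transgenic minus wild type) were taken. Gene names came from the platform annotation: 21789 probe sets carried 1 symbol, 1621 several and 12146 none. For the 999 genes with several probe sets, that with the highest mean was used. All 49 members matched RefSeq (GRCm38.p6) by Entrez identifier. With 1 array per group there was no test, and 1.5-fold among genes above the level filter was the rule of size. Promoter motifs were searched in 5 spellings, the looser and shorter NF-kB forms chosen after seeing the data. Counting was tested on simulated data with 200 changed genes. The text gives every member above the filter with both values, the others by role, and in the pathway lists, among genes above the filter, those past 1.5-fold, the highest and the lowest; any other gene was chosen after its values were seen. The members and lists were chosen with earlier results of these data known.

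Alternatives were no filter, filters at the olfactory receptor percentile or on both values, 2-fold as the rule of size, the mean of probe sets, median centring, loess (span 0.3, 3 iterations), repeated quantile normalization, and means. Python 3.11.15, pandas 2.3.3 and statsmodels 0.14.6 were used.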

Additional observations from a re-analysis of the deposited data

How the results depend on the processing

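Tnfrsf22 and Tnfrsf23 were the members counted as higher under the 7 alternatives that could change a member. Averaged probe sets could not, since each member has 1. Over median centring, loess and quantile normalization, the difference ran from 1.54 to 1.56 for Tnfrsf23, from 1.05 to 1.07 for Tnfrsf22 and from -0.80 to -0.77 for Cd27. The count of lower members was 2 with no filter on level, where Cd40lg enters, and 0 at a 2-fold threshold. The family's median of -0.01 became 0.10 with a filter on both arrays, and likewise with genes above the level filter, which was chosen after seeing the data; the NF-kB target median of -0.04 became 0.12 and 0.165. The fewer genes counted are the change in these settings. Among the 19 named members, no scaling moved a difference by more than 0.06, and the sign turned for Tnfrsf21 under median centring, loess and quantile normalization. With no filter the medians are those already given. No paired analysis was possible because each group holds 1 array and no replicate could be left out. Without replicates or a detection call, small differences and members under the filter cannot be read further.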
